A study of Mus musculus with 4 samples.

Results

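The genes described here make, remodel and break down sphingolipids, or make and sense sphingosine 1-phosphate (S1P). They were chosen by gene symbol, 34 symbols in all, and each of the 34 was found among the 17691 genes of the deposited table. Lung tissue came from wild-type C57BL/6 mice aged 6 to 8 weeks that carried no engineered allele by the labels. One group had received bleomycin, a DNA-breaking drug used to injure the lung and provoke fibrosis, through the nose, and the other PBS, a buffer, with a treatment time of 10 days in both. Each group had 2 RNA sequencing libraries. Levels are FPKM, fragments scaled to transcript length and to the library's total, so they can be set side by side between genes. The labels do not say that the libraries of a group came from separate mice, so each p-value speaks only to the variation between the libraries at hand, possibly of technical origin.

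Sphingolipids are built from serine and a fatty acyl chain. Serine palmitoyltransferase starts the route in the endoplasmic reticulum, ceramide synthases add a further acyl chain, and ceramide is then turned into sphingomyelin, glycosylated lipids or ceramide 1-phosphate. Breakdown runs back through ceramide, mostly in lysosomes, to sphingosine, which a kinase turns into S1P. In lung, S1P is known for holding the endothelial barrier together and for guiding lymphocytes through its receptors, and sphingomyelin is a minor lipid of surfactant.

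Depth, judged from how finely low values are spaced, was about 17000000 to 17800000 fragments in each library. Spread was wider in the bleomycin pair, where the median SD of log2(FPKM + 1) over tested genes was 0.115, than in the PBS pair, where it was 0.0637. Y-linked transcripts set the groups apart as well. Ddx3y was at 17.63 and 15.21 FPKM with PBS and at 0.01 and 0.02 FPKM with bleomycin, so treatment and the sex of the mice cannot be told apart in any result here. Markers of lung were present in every library, with Sftpc at 7913 to 12788 FPKM and Ager at 1883 to 2834 FPKM. A hepatocyte list of 8 genes was at a summed 98.08 and 95.45 FPKM with PBS and at 7.5 and 7.16 FPKM with bleomycin.

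**Figure D1:**
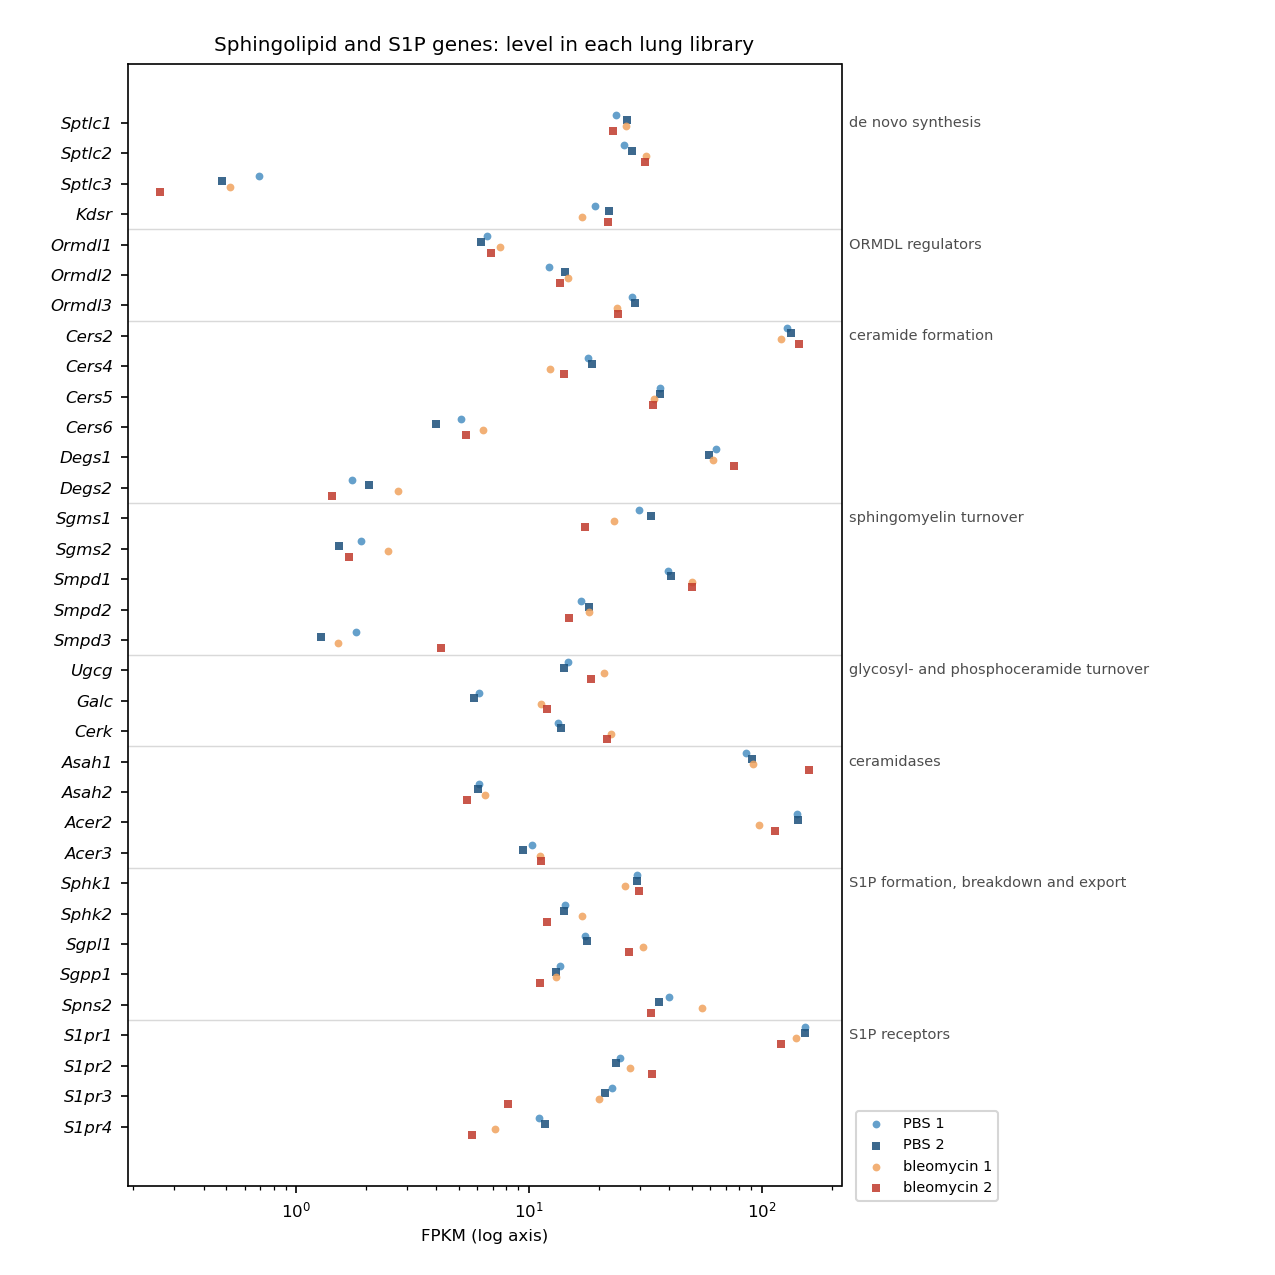
Level of each of the 34 genes in each of the 4 lung libraries, in FPKM on a log axis, with genes ordered by role and replicates 1 as circles and 2 as squares. S1pr1, Acer2 and Cers2 were the 3 genes above 100 FPKM with PBS, and Sptlc3 was the lowest at 0.26 to 0.69 FPKM.

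With PBS the 34 genes spanned a wide range of levels. In the mean of the PBS libraries 3 of them were above 100 FPKM, 25 above 10 FPKM and 33 above 1 FPKM. Their summed level hardly moved, at 1062 and 1078 FPKM with PBS and at 1053 and 1109 FPKM with bleomycin. Within that sum 4 genes rose with bleomycin (Galc, Cerk, Sgpl1 and Ugcg) and 2 fell (S1pr4 and Cers4). The test was limma on log2(FPKM + 1) across the 12986 genes whose mean reached 1 FPKM, with Benjamini-Hochberg adjustment over all of them and a threshold of 0.05. Of the 34 genes 33 passed the filter on low values, and Sptlc3 did not. The 4 rises were 12.1% of the 33 genes tested, against 8.59% of all tested genes, and the 2 falls were 6.06%, against 7.69%. Both shares were thus close to those over all genes. The 2 groups did not overlap for 11 genes that were higher with bleomycin and 8 that were lower, 32.4% and 23.5% of the 34. Over all tested genes these shares were 31.5% and 35%. The median log2 change was 0.06 over the 33 genes and -0.02 over all tested genes, and the median size of a change was 0.22 and 0.23. No member reached a log2 change of 1 in either direction.

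The called genes depended on the libraries in the fit. Without PBS replicate 1, and likewise without PBS replicate 2, limma called 0 of the 33 genes and 0 of all tested genes, of which 1137 and 1160 were higher and 993 and 1048 lower at an unadjusted p under 0.05. Before adjustment, p was under 0.05 for 3 members higher with bleomycin and 2 lower when PBS replicate 1 was left out, and for 3 and 1 when PBS replicate 2 was. Without bleomycin replicate 1 the median log2 change was 0.033 over the 33 genes and -0.058 over all tested genes. Without bleomycin replicate 2 these medians were 0.064 and 0.009. The lone library of a group is assumed in these fits to vary like the other pair. For 27 of the 33 genes the bleomycin pair lay farther apart than the PBS pair, 81.8%, against 68% of all tested genes. In 16 of the 33 the bleomycin libraries differed from each other by more than the groups did, 48.5%, against 39.2% of all tested genes.

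**Figure D2:**
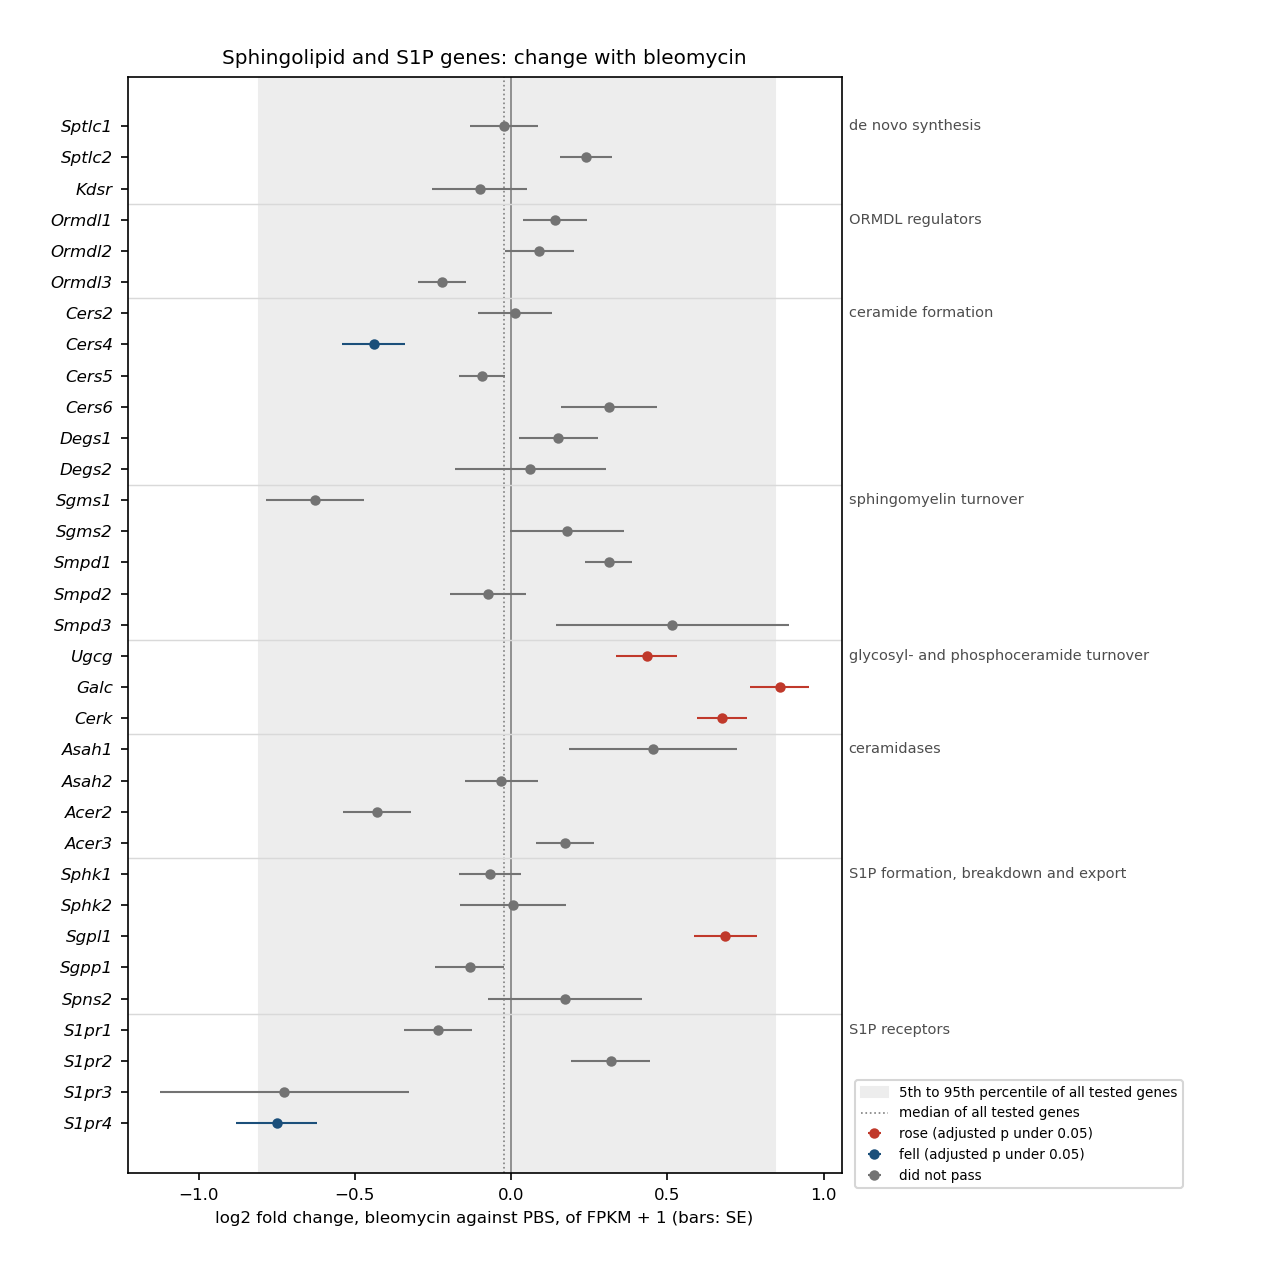
Log2 fold change of FPKM + 1, bleomycin against PBS, with its SE, for the 33 tested genes by role, over a grey band from the 5th to the 95th percentile of all tested genes (-0.81 to 0.85). Galc (0.86), Sgpl1 (0.69), Cerk (0.67) and Ugcg (0.43) rose and S1pr4 (-0.75) and Cers4 (-0.44) fell.

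The first steps of synthesis showed no called change. Sptlc1 encodes the subunit shared by all serine palmitoyltransferase complexes and stood at 23.54 and 26.49 FPKM with PBS and at 26.15 and 23.06 FPKM with bleomycin, so the groups overlapped. Sptlc2, one of its catalytic partners, was at 25.57 and 27.68 FPKM with PBS and at 31.8 and 31.4 FPKM with bleomycin. The Sptlc2 groups did not overlap, but the difference did not pass (log2 change 0.24 ± 0.08 SE, adjusted p = 0.116 by limma). The alternative catalytic partner Sptlc3 lay under the filter, with 0.69 and 0.48 FPKM in the PBS libraries and 0.52 and 0.26 FPKM in the bleomycin libraries, about 13 to 32 fragments per library. Kdsr, the ketosphinganine reductase of the next step, was at 19.23 and 22.07 FPKM with PBS and at 16.82 and 21.77 FPKM with bleomycin.

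The ORMDL proteins sit in the same membrane and restrain serine palmitoyltransferase when ceramide is plentiful. Ormdl3, whose human counterpart lies in a locus linked to childhood asthma, was the highest of the family at 27.76 and 28.5 FPKM with PBS and at 23.98 and 24 FPKM with bleomycin. All Ormdl3 values with bleomycin were lower, with a log2 change of -0.22 ± 0.08 that did not pass (adjusted p = 0.115 by limma). Ormdl1 was at 6.62 and 6.22 FPKM with PBS and at 7.5 and 6.87 FPKM with bleomycin (adjusted p = 0.373 by limma). Ormdl2 ran from 12.21 to 14.26 FPKM with PBS and from 13.58 to 14.67 FPKM with bleomycin. In the GENCODE annotation 66.7% of the exon bases of Ormdl2 are shared with Dnajc14 on the opposite strand. Whether the authors' counting used strand is not given in the sources used here, so the value of Ormdl2 is uncertain.

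Among genes that form ceramide, only the ceramide synthase gene Cers4 was called. Cers4 (gene 67260, GRCm38.p6 chromosome 8, 4492818 to 4529603) was at 17.96 and 18.71 FPKM with PBS and at 12.37 and 14.19 FPKM with bleomycin. Both bleomycin values were below both PBS values, from a mean of 18.3 ± 0.53 to 13.3 ± 1.29 FPKM (SD, n = 2 per group), 1.38-fold lower (log2 change -0.44 ± 0.10, adjusted p = 0.0498 by limma). This call held under 2 of 11 other settings of the fit, with adjusted p-values from 0.0465 to 0.0759. Cers2, which makes the very-long-chain ceramides and was the most abundant synthase gene, was at 127.97 and 133.65 FPKM with PBS and at 120.39 and 144.73 FPKM with bleomycin, and the groups overlapped. It made up 68.1% and 69.2% of the summed FPKM of Cers2 to Cers6 with PBS and 68.9% and 72.6% with bleomycin. Cers4 made up 9.56% and 9.69% of that sum with PBS and 7.08% and 7.12% with bleomycin, a share that does not depend on how the libraries are scaled.

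Cers5 and Cers6, whose enzymes favour palmitoyl chains, did not pass. Cers5 was at 36.59 and 36.38 FPKM with PBS and at 34.33 and 33.98 FPKM with bleomycin, and Cers6 at 5.09 and 3.97 FPKM with PBS and at 6.36 and 5.35 FPKM with bleomycin. For both the groups did not overlap, and they lay on opposite sides. Degs1, the desaturase that turns dihydroceramide into ceramide, was at 63.5 and 59.6 FPKM with PBS and at 61.53 and 76.1 FPKM with bleomycin, its upper value coming from replicate 2. The related Degs2 was low, at 1.73 and 2.06 FPKM with PBS and at 2.74 and 1.43 FPKM with bleomycin, so the bleomycin libraries enclosed the PBS ones. Degs2 shares 10.8% of its exon bases with Evl on the opposite strand, so its low value is uncertain too.

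Sphingomyelin is made by synthases and cleaved by sphingomyelinases, and neither side held a called gene. Sgms1, the Golgi sphingomyelin synthase gene, was at 29.75 and 33.55 FPKM with PBS and at 23.18 and 17.4 FPKM with bleomycin. The Sgms1 means differed 1.56-fold without overlap, and the difference missed the threshold (log2 change -0.63 ± 0.16, adjusted p = 0.0603 by limma). It passed under quantile normalization and under upper quartile scaling, with adjusted p-values by limma of 0.0482 and 0.0459. Sgms2, the plasma membrane form, was at 1.89 and 1.52 FPKM with PBS and at 2.47 and 1.69 FPKM with bleomycin.

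Smpd1, the lysosomal acid sphingomyelinase, was at 39.72 and 40.81 FPKM with PBS and at 50.08 and 50.35 FPKM with bleomycin. The pairs were tight and did not overlap, and the difference missed the threshold by little (log2 change 0.31 ± 0.08, adjusted p = 0.0547 by limma). Within each library the ratio of Smpd1 to Sgms1 was 1.34 and 1.22 with PBS and 2.16 and 2.89 with bleomycin. With 2 libraries against 2, an exact permutation test cannot go below p = 0.333, so ratios within libraries are given as descriptions only. Smpd2, a neutral sphingomyelinase gene, was at 16.65 and 18.04 FPKM with PBS and at 18.06 and 14.89 FPKM with bleomycin. It shares 20.3% of its exon bases with Mical1 on the opposite strand, and Mical1 rose (adjusted p = 0.0133 by limma).

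The neutral sphingomyelinase gene Smpd3 rested on 1 library. It was at 1.8 and 1.28 FPKM with PBS, at 1.51 FPKM in bleomycin replicate 1 and at 4.2 FPKM in replicate 2, a 2.78-fold gap inside the group. With all libraries it did not pass (adjusted p = 0.376 by limma). The log2 change was 1.04 without bleomycin replicate 1 and -0.01 without replicate 2.

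Galc, Cerk and Ugcg, grouped here as genes that add or remove a sugar or phosphate on ceramide, were all among the rises. The grouping was made by hand, with earlier results of these data known. Its share therefore cannot be weighed against the 8.59% of all tested genes that rose. Other genes that act on the head of ceramide did not rise, such as Sgms1 above. Outside the 34 genes, Gba2 did not rise either (log2 change -0.23, adjusted p = 0.258 by limma), and Ugt8a was under the filter. Galc encodes galactosylceramidase, the lysosomal enzyme that removes galactose from galactosylceramide and is deficient in Krabbe disease (gene 14420, chromosome 12, 98202287 to 98259459). It was at 6.1 and 5.78 FPKM with PBS and at 11.24 and 11.94 FPKM with bleomycin. Galc thus went from 5.94 ± 0.226 to 11.6 ± 0.495 FPKM, a 1.95-fold rise and the largest among the members (log2 change 0.86 ± 0.09, adjusted p = 0.0115 by limma).

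Cerk encodes ceramide kinase, which makes ceramide 1-phosphate (gene 223753, chromosome 15, 86139101 to 86186259). Its levels were 13.26 and 13.72 FPKM with PBS and at 22.53 and 21.72 FPKM with bleomycin. The rise, from 13.5 ± 0.325 to 22.1 ± 0.573 FPKM, was 1.64-fold, and both pairs were tight (log2 change 0.67 ± 0.08, adjusted p = 0.0132 by limma). Ugcg encodes glucosylceramide synthase, the entry to most glycosphingolipids (gene 22234, chromosome 4, 59189507 to 59222833). Ugcg was at 14.67 and 14.07 FPKM with PBS and at 21.06 and 18.5 FPKM with bleomycin, 1.38-fold higher (log2 change 0.43 ± 0.10, adjusted p = 0.0498 by limma). The Galc and Cerk calls held under all 11 other settings that kept the 4 libraries, and the Ugcg call under 7 of 11, with adjusted p-values from 0.0291 to 0.0724.

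The summed FPKM of a list of 10 genes of monocytes and recruited macrophages was higher in the same libraries. It was at 195.9 and 212.2 FPKM with PBS and at 735.6 and 427.4 FPKM with bleomycin. Of the 10 genes 6 rose, 0 fell and none was at 0 in any library. Most of the sum with bleomycin came from C1qa, at 284.88 and 155.86 FPKM, and C1qb, at 230.24 and 131.37 FPKM. Ly6c2, Ccr2, Cx3cr1 and Csf1r did not pass, and for Ly6c2 and Csf1r the groups overlapped. The list, Ugcg and Cerk were higher in bleomycin replicate 1 than in replicate 2, and Galc was lower. In bulk tissue more cells of a type and more RNA per cell cannot be told apart, and the part of macrophages in these rises was not tested.

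Ceramidases release sphingosine from ceramide, and none was called. Asah1, the lysosomal acid ceramidase, was at 85.38 and 91.07 FPKM with PBS, at 91.83 FPKM in bleomycin replicate 1 and at 159.54 FPKM in replicate 2. Replicate 1 thus stood beside the PBS libraries and replicate 2 well above them (adjusted p = 0.293 by limma with all libraries). The Asah1 log2 change was 0.85 without bleomycin replicate 1 and 0.06 without replicate 2. A resident alveolar macrophage list of 8 genes was also highest in bleomycin replicate 2, at a summed 1296 FPKM against 577.7 FPKM in replicate 1 and 586.3 and 701.3 FPKM with PBS, with 0 of its genes risen, 2 fallen and none at 0. Chil3, at 1050 FPKM in bleomycin replicate 2 against 315.6 FPKM in replicate 1, and Marco, at 64.22 against 11.7 FPKM, carried that sum. The other 6 genes of the list were lower in bleomycin replicate 2 than in replicate 1. The part of these cells in the level of Asah1 was not tested.

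Acer2, the Golgi alkaline ceramidase, was among the most abundant of the 34 genes with PBS, at 141.6 and 143.59 FPKM. With bleomycin it was at 97.41 and 114.45 FPKM, without overlap, and the difference missed the threshold (log2 change -0.43 ± 0.11, adjusted p = 0.0603 by limma). Acer3, another alkaline ceramidase, was at 10.27 and 9.39 FPKM with PBS and at 11.12 and 11.27 FPKM with bleomycin. The neutral ceramidase gene Asah2 was at 6.08 and 6.06 FPKM with PBS, and its bleomycin values of 6.45 and 5.42 FPKM lay on either side.

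The lyase that destroys S1P rose while the kinases that make it overlapped between groups. Sgpl1 encodes S1P lyase, which cleaves S1P irreversibly and is the only exit from the sphingolipid pathway (gene 20397, chromosome 10, 61098642 to 61147684). It was at 17.4 and 17.73 FPKM with PBS and at 30.97 and 26.86 FPKM with bleomycin. From a mean of 17.6 ± 0.233 to 28.9 ± 2.91 FPKM this was a 1.65-fold rise (log2 change 0.69 ± 0.10, adjusted p = 0.0191 by limma), and the call held under all 11 other settings with 4 libraries.

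Sphk1, the cytosolic sphingosine kinase gene, was at 29.02 and 29.09 FPKM with PBS and at 25.73 and 29.74 FPKM with bleomycin (adjusted p = 0.659 by limma). Sphk2, the kinase found in nucleus and mitochondria, was at 14.21 and 14.08 FPKM with PBS and at 16.85 and 11.96 FPKM with bleomycin, so the bleomycin libraries lay on either side of the PBS pair. Sphk2 shares 13% of its exon bases with the clock output gene Dbp on the opposite strand. Dbp was at 116.78 and 106.28 FPKM with PBS and at 37.21 and 3.33 FPKM with bleomycin, in the same order as Sphk2 between the bleomycin libraries, and Sphk2 also shares 8.97% with Rpl18, a ribosomal protein gene at 763.7 and 872.9 FPKM with PBS and at 826.6 and 761.5 FPKM with bleomycin. The part of either neighbour in the Sphk2 values was not tested. Within libraries, the ratio of Sphk1 to Sgpl1 was 1.67 and 1.64 with PBS and 0.831 and 1.11 with bleomycin. Counting both kinases, the ratio to Sgpl1 came to 2.48 and 2.43 with PBS, compared with 1.37 and 1.55 with bleomycin. These ratios do not depend on the scaling of the libraries.

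Sgpp1, the S1P phosphatase that returns S1P to sphingosine, was at 13.63 and 13.07 FPKM with PBS and at 13.12 and 11.13 FPKM with bleomycin. The ratio of Sgpl1 to Sgpp1, the lyase to the phosphatase, was 1.28 and 1.36 with PBS and 2.36 and 2.41 with bleomycin. Spns2, the transporter by which endothelial cells release S1P, was at 39.86 and 36.35 FPKM with PBS, at 55.42 FPKM in bleomycin replicate 1 and at 33.32 FPKM in replicate 2. It did not pass with all libraries (adjusted p = 0.657 by limma). Its log2 change was 0.53 without bleomycin replicate 2 and -0.19 without replicate 1.

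**Figure D3:**
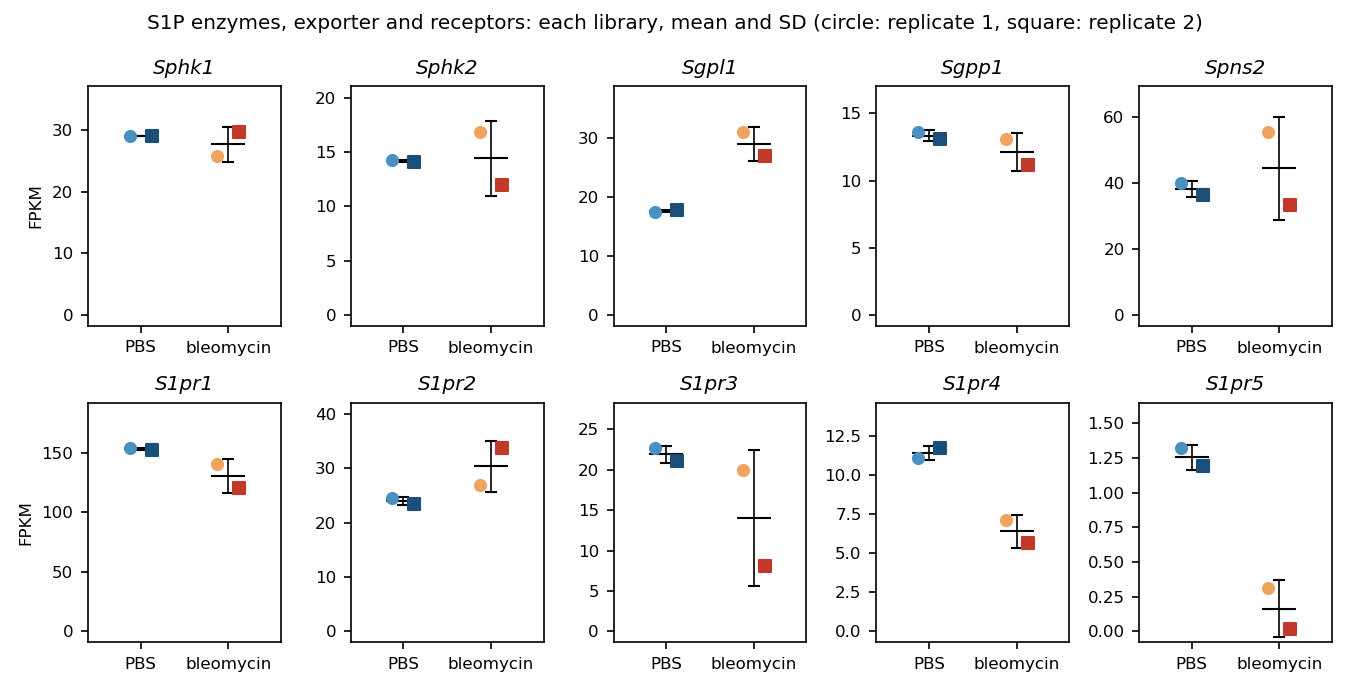
FPKM of S1P kinases, lyase, phosphatase, exporter and receptors in each library (circles replicate 1, squares replicate 2), with the mean as a bar and the SD as whiskers, n = 2 per group, and an axis scaled for each gene. The Sgpl1 and S1pr4 groups stand apart, whereas S1pr3 and Spns2 differ mainly between the bleomycin libraries.

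S1P receptors are G protein-coupled receptors of the cell surface. S1pr4, found mostly on blood cells, fell with bleomycin (gene 13611, chromosome 10, 81497745 to 81500137). It was at 11.08 and 11.72 FPKM with PBS and at 7.14 and 5.67 FPKM with bleomycin, from 11.4 ± 0.453 to 6.41 ± 1.04 FPKM. That is a 1.78-fold lower level without overlap (log2 change -0.75 ± 0.13, adjusted p = 0.0268 by limma). The call held under 10 of 11 other settings and was lost with no filter on low values (adjusted p = 0.0557 by limma). The summed FPKM of a neutrophil list of 7 genes was lower in the same libraries, with 4 genes fallen and 0 risen. It came to 384.7 and 514.1 in the PBS libraries, against 193.5 and 155.5 in the bleomycin libraries. Most of the sum in each library came from S100a8 and S100a9. In the PBS libraries S100a8 was at 155.41 and 214.38 FPKM, and S100a9 was at 184.3 and 237.25 FPKM. Csf3r, Cxcr2 and Mmp8 did not pass. The Csf3r groups overlapped, and Cxcr2 was slightly lower (log2 change -0.117). Mmp8 was higher with bleomycin without overlap (log2 change 0.425). A lymphocyte list of 12 genes was at 81.93 and 80.82 FPKM with PBS, 89.67 FPKM in bleomycin replicate 1 and 28.04 FPKM in replicate 2, with 0 of its 11 tested genes called. Red cell and platelet lists were lower as well, the first at a summed 5185 and 6714 FPKM with PBS and at 2249 and 1524 FPKM with bleomycin, with 5 of 5 tested genes fallen. The platelet list was at 91.14 and 172.1 FPKM with PBS and at 42.06 and 32.29 FPKM with bleomycin, with 3 of 5 genes fallen. No gene of these lists was at 0 in any library, and the part of any of these cells in the S1pr4 values was not tested.

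S1pr1, the receptor that endothelial cells need for barrier function and lymphocytes need to leave lymphoid organs, was the most abundant member with PBS. It stood at 153.97 and 152.66 FPKM with PBS and at 140.88 and 120.3 FPKM with bleomycin, without overlap, and did not pass (log2 change -0.23 ± 0.11, adjusted p = 0.198 by limma). A list of 10 endothelial genes was at a summed 2374 and 2468 FPKM with PBS and at 1661 and 1584 FPKM with bleomycin, with 4 genes fallen, 0 risen and a median log2 change of -0.59. S1pr1 made up 72.1% and 72.6% of the summed FPKM of the 5 S1P receptor genes with PBS and 72.1% and 71.7% with bleomycin.

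S1pr2 and S1pr3 went opposite ways without passing. S1pr2, which loosens endothelial junctions, was at 24.52 and 23.53 FPKM with PBS and at 27.03 and 33.7 FPKM with bleomycin (log2 change 0.32 ± 0.13, adjusted p = 0.151 by limma). S1pr3, found on smooth muscle, fibroblasts and endothelium, was at 22.64 and 21.11 FPKM with PBS, at 19.95 FPKM in bleomycin replicate 1 and at 8.12 FPKM in replicate 2. The lower mean of S1pr3 therefore rested mainly on replicate 2 (adjusted p = 0.261 by limma with all libraries). The S1pr3 log2 change was -1.33 without bleomycin replicate 1 and -0.13 without replicate 2. Of the summed receptor FPKM, S1pr2 held 11.5% and 11.2% with PBS and 13.8% and 20.1% with bleomycin, and S1pr3 10.6% and 10% with PBS, compared with 10.2% and 4.84% with bleomycin. The fifth receptor gene, S1pr5, is not one of the 34 and was chosen after its values were seen. It was at 1.32 and 1.19 FPKM with PBS and at 0.31 and 0.02 FPKM with bleomycin, which put its mean under the filter. In the fit with no filter S1pr5 fell (log2 change -0.96 ± 0.14, adjusted p = 0.0418 by limma). The natural killer cell genes Nkg7 and Ncr1 were at 10.37 and 8.39 FPKM and at 1.05 and 1.3 FPKM with PBS, and at 6.93 and 1.53 FPKM and 0.72 and 0.19 FPKM with bleomycin. Like S1pr5, both were lowest in bleomycin replicate 2.

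The bases before the start sites of called members are shown to let their make-up be compared, for 2 of the 4 risen genes and 1 of the 2 that fell. They are from RefSeq on GRCm38.p6, read 5′ to 3′ along the gene's own strand, which is the minus strand for each of them. Capitals mark the GC box GGGCGG or its reverse complement CCGCCC, searched as those 6 letters. The windows end at the start site, or for Sgpl1 19 bases before it, where an annotated exon of the gene begins.
Galc (chr12:98259460-98259559): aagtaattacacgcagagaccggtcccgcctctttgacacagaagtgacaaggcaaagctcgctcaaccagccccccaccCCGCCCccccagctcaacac
Sgpl1 (chr10:61147704-61147784): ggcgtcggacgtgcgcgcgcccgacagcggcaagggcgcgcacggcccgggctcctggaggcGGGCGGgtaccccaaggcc
S1pr4 (chr10:81500138-81500237): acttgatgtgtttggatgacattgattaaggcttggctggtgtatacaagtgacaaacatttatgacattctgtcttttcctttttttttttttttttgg

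The start used for Cerk lies inside the span of the gene given above, so its bases are not shown. Over the 250 bases before the start in the promoter table, G and C made up 54% of bases for Galc, 56.4% for Cerk, 74.8% for Sgpl1 and 80.4% for Ugcg. For the genes that fell they made up 38.8% for S1pr4 and 63.2% for Cers4, against a median of 52.4% over 32851 promoters. The GC box occurred 3 times for Sgpl1, 2 times for Ugcg, 1 time each for Galc and Cers4 and 0 times for Cerk and S1pr4, and 32.7% of all promoters held at least 1. The letters CACGTG, the same on both strands, are the core of sites that the lysosomal regulator TFEB binds. They were in 0 of the 6 promoters of called members, in 7 of the 46 promoters of all members (15.2%) and in 6.02% of all promoters. Among the other pathway genes described below they were in 5 of 42 promoters (11.9%). Of these Aldh3a2, Gla and Glb1 were called, and Arsa and Sgpp2 did not pass. Both motifs were chosen after the values were seen, and a match or its lack is a description of these letters only.

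Other genes of the pathway were taken from a list made with earlier results of these data known. Of its genes 43 were in the table and 35 passed the filter. Of the 35, 7 rose, 4 fell and 24 did not pass, or 20% and 11.4%, beside 8.59% and 7.69% over all tested genes. Because of how the list was made, its shares, and those of its parts, cannot be weighed against all tested genes. Lysosomal enzymes that strip sugars from glycosphingolipids made up most of the rises. Gla, the alpha-galactosidase deficient in Fabry disease, rose from 4.62 and 4.99 FPKM to 10.18 and 7.36 FPKM. Gla lies on the X chromosome, and for it too treatment and the sex of the mice cannot be told apart. Glb1, a beta-galactosidase, rose from 14.72 and 14.26 FPKM to 21.26 and 21.71 FPKM. Neu1, a sialidase gene outside the rule for named genes, was at 10.92 and 11.36 FPKM with PBS and at 15.87 and 16.6 FPKM with bleomycin. In all, 5 of the 11 breakdown genes rose, 0 fell and 6 did not pass (median log2 change 0.51, against -0.02 over all tested genes). Adjusted p-values by limma were 0.0489 for Gla, 0.0196 for Glb1 and 0.0251 for Neu1, and 0 of these 3 were called without a PBS library. Psap, the precursor of the saposins that help Galc and other hydrolases reach their lipids, was at 464.5 and 437.5 FPKM with PBS and at 1026 and 610.2 FPKM with bleomycin (adjusted p = 0.106 by limma).

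Gla was higher in bleomycin replicate 1 than in replicate 2, as the monocyte and recruited macrophage list was, whereas Glb1 and Neu1 were slightly lower there. The part of macrophages in the rises of these hydrolases was not tested either. By contrast, of 7 genes of glycosphingolipid synthesis beyond Ugcg 0 were called, with a median log2 change of 0.22. Whether breakdown and synthesis genes differed in their change was not tested.

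**Figure D4:**
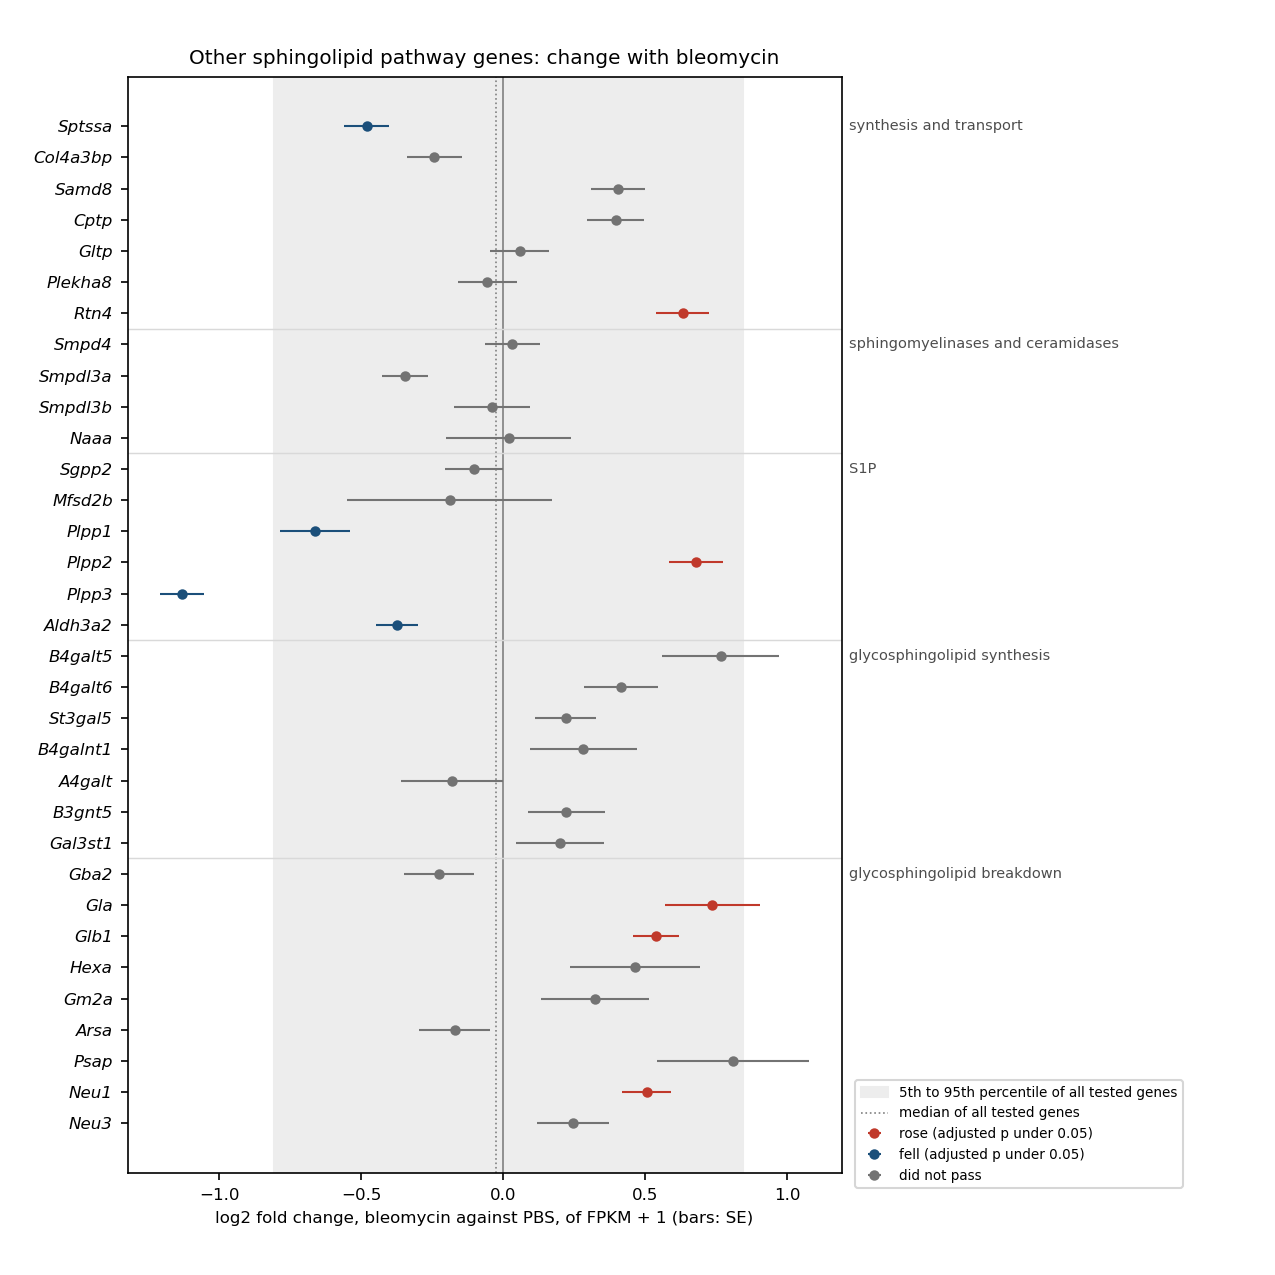
Log2 fold change of FPKM + 1, bleomycin against PBS, with its SE, for 33 of the 35 tested genes of the pathway outside the 34, over the same grey band of all tested genes. The called lysosomal genes Gla, Glb1 and Neu1 lie on the right, and the lipid phosphatase gene Plpp3 lies farthest to the left at -1.13.

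Lipid phosphate phosphatases, which remove phosphate from S1P and lysophosphatidic acid outside the cell, changed in both directions. Plpp3 fell from 87.23 and 82.93 FPKM to 38.15 and 38.43 FPKM, 2.22-fold and the largest called change on the list (log2 change -1.13 ± 0.08, adjusted p = 0.00616 by limma). Plpp1 fell from 133.64 and 163.56 FPKM to 91.67 and 94.4 FPKM (adjusted p = 0.0309 by limma), while Plpp2 rose from 11.09 and 10.72 FPKM to 17.1 and 19.06 FPKM (adjusted p = 0.0175 by limma). With PBS, Plpp2 was the least abundant of the 3. The endothelial list was lower in the same libraries as Plpp3 and Plpp1, and its part in their falls was not tested. Rtn4, whose protein Nogo-B binds and restrains serine palmitoyltransferase, rose from 56.61 and 54.22 FPKM to 81.57 and 91.52 FPKM (adjusted p = 0.0197 by limma). Sptssa, which encodes a small activating subunit of the same enzyme and is outside the rule for named genes, was at 57.22 and 59.19 FPKM with PBS and at 42.52 and 40.37 FPKM with bleomycin (adjusted p = 0.0242 by limma). The remaining called gene, Aldh3a2, encodes the aldehyde dehydrogenase that clears the product of S1P lyase and was at 38.52 and 39.58 FPKM with PBS and at 29.62 and 30.19 FPKM with bleomycin (adjusted p = 0.0373 by limma).

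**Figure D5:**
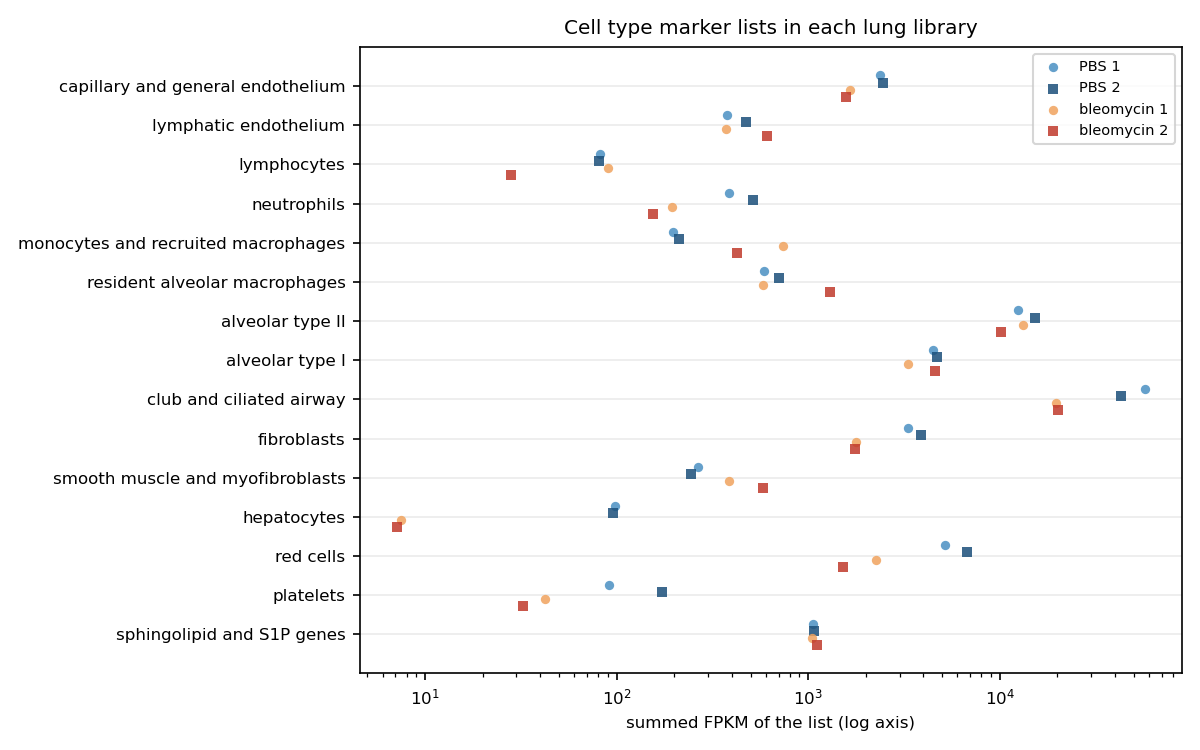
Summed FPKM of cell type marker lists, and of the 34 sphingolipid and S1P genes, in each library on a log axis, with replicates 1 as circles and 2 as squares. The endothelial and neutrophil lists are lower and the monocyte and recruited macrophage list is higher in both bleomycin libraries, whereas the 34 genes sum to 1053 to 1109 FPKM in all 4.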

How the data were processed

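RNA from mouse lung was sequenced in 4 libraries, grouped and numbered by their titles. The values are FPKM, deposited by the authors as 1 table with a row for each gene, per the file headers. The submitters' processing notes name HISAT and Bowtie2 as tools, and GRCm38 and mm10 as builds. Which tool made the FPKM, and whether strand was used, is not given in the sources used here. Each value is relative to each library's total, so a very abundant gene lowers the others. The protocol speaks of 4 groups and the design text of 3 replicates, and 2 groups of 2 libraries were analysed. Of 17692 rows, 1 without a name (at most 0.0009% of a library) was dropped, and 27 gene symbols that had become dates were recovered from their transcripts.

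The members, lists and motifs were chosen with earlier results of these data known. The test ran on log2(FPKM + 1) in limma 3.58.1 under R 4.3.3 (eBayes with a trend, residual degrees of freedom 2, prior 2.76), two-sided, on the 12986 genes whose mean reached 1 FPKM, all p-values adjusted over these. Fold changes on this scale understate the change of low genes. In simulated data for this comparison (12986 genes), limma found 84% of the 100 genes given a 2-fold change and 99% of the 100 given a 4-fold change, with 23 false calls among 206. The simulation gave each gene the same spread in both groups and changed no other genes. In the data the median SD with bleomycin was 1.81 times that with PBS, and many more genes were called. These rates may therefore not hold for the data. Every member is named, of other pathway genes up to 8 called with the largest change (2 of the 8 are counted but not reported here), and others are said to lie outside the rule or to have been chosen later. Neu1, Psap, Aldh3a2 and the genes below the filter are of that kind. Depth was estimated from values of 0.03 to 0.3 FPKM of genes with 1 transcript of 300 to 1000 bases, where 75% to 78.1% lay within 0.15 of a whole fragment. It uses GENCODE lengths and is approximate. Positions and promoters are from RefSeq on GRCm38.p6, where 31 of the 34 members had a promoter. Alternatives tried were other pseudocounts, filters, scalings and eBayes settings, removing a library at a time, and a block for the replicate number.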

Additional observations from a re-analysis of the deposited data

How the results depend on the processing

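Galc, Cerk and Sgpl1 passed in all 11 other settings that kept the 4 libraries, S1pr4 in 10, Ugcg in 7 and Cers4 in 2. The count of 2 falls among the members became 1 with a pseudocount of 0.1 or 0.5, under TPM rescaling, median of ratios scaling, eBayes without a trend and the replicate block, and 0 with no filter. With no filter limma gave 5 lower at an unadjusted p under 0.05. Replicate numbers do not pair the libraries by the labels, and the differences between replicates 1 and 2 in the groups correlated at 0.02 across genes. The replicate block also took the falls among other pathway genes from 4 to 2, and it moved the counts of rises, and of falls over all genes, by less than 1.5 times.

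Leaving out 1 library gave 0 to 2393 rises and 0 to 3180 falls over all genes, 0 to 9 and 0 to 6 among members, and 0 to 15 and 0 to 9 among other pathway genes. The zeros came from leaving out either PBS library. Some members turned sign under an alternative, and 0 of these were called with all libraries. Sptlc1 was at 0.043 and Asah2 at 0.027 under TPM rescaling, and Cers2 at -0.041 under quantile normalization. Leaving out 1 library, the log2 changes ran from -0.110 to 0.064 for Sptlc1, -0.278 to 0.076 for Kdsr, -0.014 to 0.194 for Ormdl2, -0.118 to 0.145 for Cers2 and -0.250 to 0.372 for Degs2. They ran from -0.005 to 0.363 for Sgms2, -0.206 to 0.056 for Smpd2, -0.010 to 1.041 for Smpd3, -0.139 to 0.076 for Asah2, -0.169 to 0.033 for Sphk1, -0.225 to 0.237 for Sphk2 and -0.187 to 0.530 for Spns2. The cause was not tested.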

Other observations

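Cers3 and Apom were among the pathway genes below the filter on low values whose groups stood apart. Both were chosen after their values were seen. The groups did not overlap for S1pr5, Acer1 and Ugt8a below the filter either. Cers3, the ceramide synthase of ultra-long chains in the skin barrier, was at 0.29 and 0.36 FPKM with PBS and at 1.37 and 1.16 FPKM with bleomycin. In the fit with no filter it rose (log2 change 0.77 ± 0.08, adjusted p = 0.0277 by limma), and it held 0.154% and 0.186% of the summed ceramide synthase FPKM with PBS and 0.784% and 0.582% with bleomycin. Apom, the carrier of S1P on plasma lipoproteins and a gene of liver and kidney, was at 1.2 and 1.1 FPKM with PBS and at 0.08 FPKM in both bleomycin libraries. In the same fit Apom fell (log2 change -0.99 ± 0.05, adjusted p = 0.0181 by limma). The hepatocyte list was lower in the same libraries, with 8 of its 8 genes fallen and none at 0, and its part in the level of Apom was not tested.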
